A study of Homo sapiens with 6 samples.

Results

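The matrix proteases and inhibitors described here are 9 genes of Ishikawa cells, an established human endometrial adenocarcinoma line, taken by symbol from a table of 61806 genes. Each of the 9 symbols had 1 row. They are the membrane-type matrix metalloproteinases (MMPs) MMP14, MMP15 and MMP24, the tissue inhibitors of metalloproteinases TIMP1, TIMP2 and TIMP3, the urokinase PLAU with its receptor PLAUR, and the membrane metalloprotease ADAM9. Poly(A) RNA was sequenced from 3 libraries of cells overexpressing TEFM, the mitochondrial transcription elongation factor, and from 3 libraries of cells labelled EV. Both groups had no treatment and were kept in DMEM with fetal bovine serum. What EV stands for, how TEFM was introduced, and whether the overexpressing cells are a clone or a pool are not stated in the labels. The submitters call the 3 replicates of each group independent and biological.

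Membrane-type MMPs are zinc enzymes anchored at the cell surface that cut collagens, fibronectin, laminins and other surface proteins, and MMP14 also activates the secreted gelatinase MMP2. TIMPs are secreted proteins that block MMPs. TIMP2 has a further role, because a TIMP2 molecule bound to MMP14 captures the MMP2 proenzyme so that a second MMP14 can cut it. Urokinase, held at the cell surface by PLAUR, turns plasminogen into plasmin, a broad protease that degrades fibrin and can activate some MMPs. In the endometrium, MMPs and TIMPs take part in the breakdown and repair of tissue over the menstrual cycle.

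Levels are given in FPKM, the count divided by exonic length and scaled to the library total. Fold changes come from a test on raw counts (quasi-likelihood F test of edgeR, two-sided), fitted to the 14254 genes with a mean of at least 1 FPKM over the 6 libraries. A change was called at a Benjamini-Hochberg adjusted p under 0.05 over all of these genes. Library totals were 14252668 to 17562807 counts in TEFM and 15092555 to 17891047 in EV. TEFM itself averaged 23.4 ± 0.653 FPKM in the TEFM libraries and 4.31 ± 0.218 FPKM in the EV libraries (SD, n = 3 each). The epithelial markers KRT8, KRT18, EPCAM and CDH1 and the endometrial factors PAX8 and SOX17 were all present, each above 20 FPKM in both groups. Of the 8 tested markers on the list of 9, 7 rose and none fell, against 43.4% of all tested genes called and 21.7% higher. The median log2 fold change of the 8 was 0.43. MUC1, the lowest of the 7, averaged 5.68 ± 0.564 FPKM in TEFM and 3.48 ± 0.626 FPKM in EV (SD, n = 3 each). The part of these markers in the results was not tested. ESR1, the oestrogen receptor gene, was near 0, with 6 counts in TEFM and 1 count in EV. Summed over its list, the level was 1.9 to 2.77 FPKM in TEFM and 1.92 to 2.25 FPKM in EV for 7 fibroblast markers. For 6 leukocyte markers it was 0.16 to 0.8 FPKM in TEFM and 0.36 to 0.58 FPKM in EV. For 4 endothelial markers it was 0.42 to 0.53 FPKM in TEFM and 0.24 to 0.33 FPKM in EV. DCN among the fibroblast markers and CD3E among the leukocyte markers had no count in any library. Of these lists the endothelial sum did not overlap between groups, with PECAM1 at 16, 14 and 12 counts in the TEFM libraries, against 9, 0 and 2 in the EV libraries, and KDR at 4, 4 and 3 counts in TEFM and 0 in each EV library. In a fit of the 25786 genes with at least 10 counts in all, 28.0% of genes were called. PECAM1, KDR and the fibroblast markers THY1 and COL1A2 were higher in TEFM there (edgeR adjusted p = 0.0207, 0.0242, 0.00929 and 0.0287). KDR reached this minimum only through its TEFM libraries. THY1 overlapped between groups, at 0.42, 0.39 and 0.14 FPKM in TEFM, against 0.09, 0.07 and 0.24 FPKM in EV. The fibroblast markers COL1A1, COL3A1 and LUM did not pass in that fit, with log2 fold changes of 0.05, -1.26 and 0.12. Their edgeR adjusted p were 0.793, 0.142 and 0.906. The part of these lists in the results was not tested.

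Of the 9 genes, 7 reached the minimum for testing. Of these, 6 rose in the TEFM libraries (MMP14, MMP15, TIMP1, TIMP2, PLAU and PLAUR) and ADAM9 fell. MMP24 and TIMP3 lay below the minimum. The background for these calls was high, because 43.4% of all tested genes were called, 21.7% higher and 21.7% lower. This even split depends on the scaling for composition: without it 2576 genes were higher and 3679 lower, and limma on log2(FPKM + 0.1) gave 2181 higher and 3099 lower. The 3 TEFM and 3 EV values did not overlap for any of the 7 tested genes, against 51.6% of all tested genes (21.1% higher, 30.5% lower). The rises differed in size: TIMP2 was 2.25-fold higher, TIMP1 1.5-fold, MMP15 and PLAU 1.37-fold each, PLAUR 1.25-fold and MMP14 1.21-fold. ADAM9 in TEFM stood at 0.908 times its EV level. In bulk RNA, more cells with a transcript and more RNA per cell cannot be told apart.

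**Figure D1:**
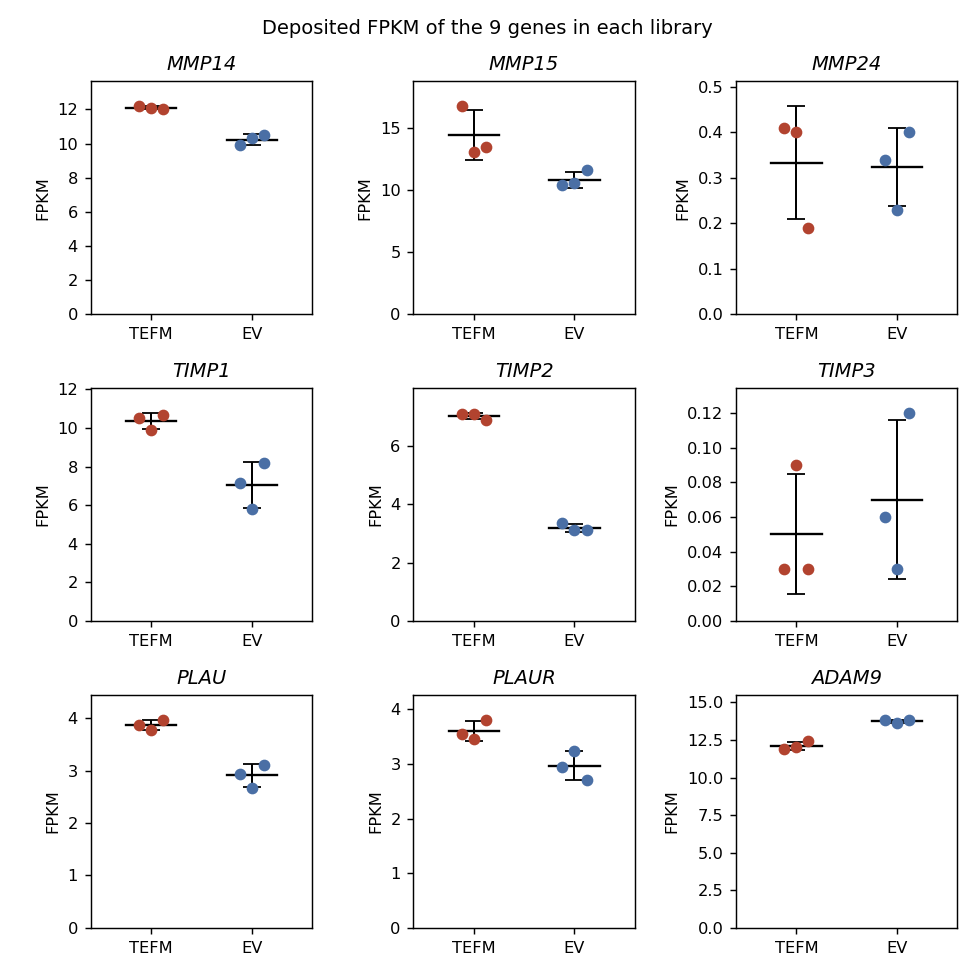
Deposited FPKM of each of the 9 genes, with TEFM libraries on the left and EV libraries on the right of each panel. Points are libraries, the horizontal line is the mean and the error bar is the SD over 3 libraries; the y axes start at 0 and differ in range. TIMP2 shows the widest gap between groups, 7.01 against 3.19 FPKM on average, while MMP24 and TIMP3 overlap.

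Promoter windows from RefSeq, GRCh38.p14, running from 250 bases before to 50 bases after the gene start given by RefSeq, were held for 7 of the 9 genes, 2 of them for PLAU. TIMP2 had no entry. The windows of PLAUR and PLAU lie wholly within the spans that the deposited table gives for these genes, so its gene starts differ from those of RefSeq. The 8 windows were searched on both strands for TGANTCA, which AP-1 factors bind and which reads the same on both strands, and for the NF-kB consensus, since the title of the series names NF-kB. The AP-1 motif was found in 1 window, that of PLAUR, 186 bases before the RefSeq start, and in 7.71% of 35116 promoters of the same length. The NF-kB consensus was found in none of the 8 windows and in 11.3% of the 35116. The windows of PLAUR (chr19:43670120-43670419, minus strand), of TIMP1 (chrX:47582186-47582485, plus strand), the inhibitor with the larger rise among those with an entry, and of MMP14 (chr14:22836335-22836634, plus strand) are shown for comparison, with the AP-1 motif in capitals.
PLAUR: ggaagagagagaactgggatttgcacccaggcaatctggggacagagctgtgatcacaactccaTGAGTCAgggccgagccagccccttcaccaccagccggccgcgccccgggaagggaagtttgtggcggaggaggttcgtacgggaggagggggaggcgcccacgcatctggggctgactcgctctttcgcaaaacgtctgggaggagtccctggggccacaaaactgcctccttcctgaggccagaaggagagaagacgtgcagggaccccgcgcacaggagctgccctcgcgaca
TIMP1: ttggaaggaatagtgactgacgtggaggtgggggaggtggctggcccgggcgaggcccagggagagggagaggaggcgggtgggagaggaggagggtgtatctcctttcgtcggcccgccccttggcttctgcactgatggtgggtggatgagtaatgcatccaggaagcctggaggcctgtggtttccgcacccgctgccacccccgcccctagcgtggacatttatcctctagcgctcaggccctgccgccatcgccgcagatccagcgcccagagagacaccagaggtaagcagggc
MMP14: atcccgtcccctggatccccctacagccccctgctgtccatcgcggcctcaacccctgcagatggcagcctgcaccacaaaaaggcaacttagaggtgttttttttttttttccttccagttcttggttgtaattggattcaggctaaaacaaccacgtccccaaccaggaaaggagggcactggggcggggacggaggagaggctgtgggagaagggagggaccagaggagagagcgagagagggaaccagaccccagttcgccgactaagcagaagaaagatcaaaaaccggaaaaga

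TIMP2 (ENSG00000035862, chromosome 17, 78852977 to 78925387, minus strand; coordinates here and below are those of the deposited table, whose gene spans overlap those of GRCh38) had 7.07, 7.07 and 6.88 FPKM in the TEFM libraries, against 3.35, 3.11 and 3.11 FPKM in the EV libraries. Both groups were tight and lay far apart. The raw counts behind these levels were 673, 699 and 552 in TEFM, against 338, 264 and 281 in EV. The log2 fold change was 1.17 (SE 0.0801; edgeR adjusted p = 1.62e-11). In absolute size this exceeded 96.4% of tested genes, and its p ranked 204th. CEP295NL, a gene on the same strand within the TIMP2 span, had a mean of only 0.0317 FPKM.

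TIMP1 (ENSG00000102265, chromosome X, 47582408 to 47586789, plus strand), which inhibits most secreted MMPs but is a weak inhibitor of MMP14, had 10.5, 9.88 and 10.7 FPKM in the TEFM libraries, against 7.15, 5.82 and 8.19 FPKM in the EV libraries. All 3 TEFM values were above all 3 EV values, and the EV libraries were the more scattered. The log2 fold change was 0.59 (SE 0.126; edgeR adjusted p = 0.000525). TIMP1 lies on the opposite strand within SYN1, a synapsin gene, which had a mean of 0.0967 FPKM. Without EV replicate 2, the lowest of the EV libraries, the log2 fold change of TIMP1 was 0.47.

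TIMP3 (ENSG00000100234, chromosome 22, 32801705 to 32863041), an inhibitor that binds to the matrix, was barely detected. It had 2, 7 and 2 counts in the TEFM libraries and 5, 2 and 9 counts in the EV libraries. These ranges overlap, and no difference was detectable at this depth. In the fit of genes with at least 10 counts in all, TIMP3 did not pass (edgeR adjusted p = 0.734). Summed over TIMP1, TIMP2 and TIMP3, the inhibitors reached 17.6, 17.0 and 17.6 FPKM in TEFM, against 10.6, 8.96 and 11.4 FPKM in EV. RECK and TIMP4 were listed with them. RECK, a membrane-anchored MMP inhibitor, averaged 1.72 ± 0.403 FPKM in TEFM and 1.9 ± 0.0862 FPKM in EV (SD, n = 3 each; log2 fold change -0.10, edgeR adjusted p = 0.631). TIMP4, a TIMP of narrower tissue range, lay under the minimum for testing, at 0.567 ± 0.335 FPKM in TEFM and 0.800 ± 0.316 FPKM in EV.

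MMP14 (ENSG00000157227, chromosome 14, 22836560 to 22849041, plus strand) had 12.2, 12.1 and 12 FPKM in the TEFM libraries, against 9.91, 10.3 and 10.5 FPKM in the EV libraries. The TEFM libraries were nearly identical and all above EV. The log2 fold change was small, 0.28 (SE 0.0598; edgeR adjusted p = 0.000472), and 61.9% of tested genes had a smaller absolute value.

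MMP15 (ENSG00000102996, chromosome 16, 58025754 to 58046901, plus strand), a second membrane-type MMP with a transmembrane anchor, had 16.8, 13.1 and 13.5 FPKM in the TEFM libraries, against 10.4, 10.6 and 11.6 FPKM in the EV libraries. TEFM replicate 1 stood above the rest, and the other two TEFM libraries were still above every EV library. The log2 fold change was 0.46 (SE 0.0771; edgeR adjusted p = 3.35e-05). Leaving out TEFM replicate 1 gave 0.33 (edgeR adjusted p = 0.000561).

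MMP24 (ENSG00000125966, chromosome 20, 35226690 to 35276998, plus strand), known mainly from the nervous system, was near the limit of detection. It had 30, 31 and 12 counts in the TEFM libraries, against 27, 15 and 28 counts in the EV libraries, and the ranges overlap. In the fit of genes with at least 10 counts in all, its log2 fold change was 0.09 (SE 0.346; edgeR adjusted p = 0.898). Its whole span of 50309 bases lies within the antisense gene MMP24OS, which averaged 1.74 FPKM over the 6 libraries, more than the 0.328 FPKM of MMP24. Since the labels do not say whether the counting used strand, reads of the 2 cannot be told apart with certainty. Among the other membrane-type MMPs, MMP16, MMP17 and MMP25 were all below the minimum.

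PLAU (ENSG00000122861, chromosome 10, 73909177 to 73917496, plus strand) had 3.87, 3.77 and 3.97 FPKM in the TEFM libraries, against 2.94, 2.67 and 3.11 FPKM in the EV libraries. The groups did not overlap, and the log2 fold change was 0.45 (SE 0.129; edgeR adjusted p = 0.00631). Its receptor gene PLAUR (ENSG00000011422, chromosome 19, 43646095 to 43670547, minus strand) had 3.54, 3.46 and 3.81 FPKM in the TEFM libraries, against 2.95, 3.24 and 2.71 FPKM in the EV libraries. The gap between the lowest TEFM and the highest EV library was narrow. The log2 fold change of PLAUR was 0.32 (SE 0.111; edgeR adjusted p = 0.0217). This was the least firm of the 7 calls. PLAUR did not pass without EV replicate 1 (edgeR adjusted p = 0.0540), without EV replicate 3 (0.0849), without TEFM replicate 3 (0.0902) or with limma on log2(FPKM + 1) (adjusted p = 0.0523).

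Of 10 listed genes of plasminogen activation 5 were tested and 5 rose, PLAU and PLAUR among them, against 43.4% of all tested genes called and 21.7% higher. PLAUR is the call lost in 4 alternatives above, and SERPINE2 reached the minimum only through its TEFM level. S100A10, which with ANXA2 forms a plasminogen receptor at the cell surface, averaged 87.2 ± 1.49 FPKM in TEFM and 46.0 ± 0.832 FPKM in EV, a log2 fold change of 0.96 (edgeR adjusted p = 4.46e-13). ANXA2 averaged 44.4 ± 0.200 FPKM in TEFM and 39.0 ± 1.07 FPKM in EV. SERPINE2, an inhibitor of urokinase and thrombin, averaged 2.39 ± 0.190 FPKM in TEFM and 0.643 ± 0.0737 FPKM in EV, log2 fold change 1.92 (SE 0.126; edgeR adjusted p = 7.73e-12). PLAT, the other plasminogen activator, averaged 0.263 ± 0.0551 FPKM in TEFM and 0.227 ± 0.0351 FPKM in EV, and plasminogen itself (PLG) had 2 counts in 1 TEFM library and none elsewhere.

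ADAM9 (ENSG00000168615, chromosome 8, 38996754 to 39105445, plus strand), a membrane metalloprotease that sheds surface proteins, was the 1 gene of the 9 that fell. It had 11.9, 12 and 12.4 FPKM in the TEFM libraries, against 13.8, 13.6 and 13.8 FPKM in the EV libraries. The groups were tight and did not overlap, but the step was small: the log2 fold change was -0.14 (SE 0.0384; edgeR adjusted p = 0.00475), and 35.9% of tested genes had a smaller absolute value. Of the 5 tested ADAMs with a catalytic site, ADAM10 and ADAM15 rose and ADAM9 fell, so that 60% were called, against 43.4% of all tested genes. Only 1 of the 5 rose without EV replicate 1, without TEFM replicate 1 and with limma on log2(FPKM + 1) or log2(FPKM + 0.1). ADAM10, a general sheddase, averaged 11 ± 0.365 FPKM in TEFM and 9.99 ± 0.127 FPKM in EV (log2 fold change 0.18, edgeR adjusted p = 0.000716). ADAM15 averaged 11.8 ± 1.04 FPKM in TEFM and 10.6 ± 0.676 FPKM in EV (log2 fold change 0.20, edgeR adjusted p = 0.00924), with overlapping groups. ADAM17, the sheddase of TNF and EGF-family ligands, averaged 5.20 ± 0.189 FPKM in TEFM and 5.20 ± 0.132 FPKM in EV. Of the 6 listed growth factors that ADAMs release, HBEGF was the 1 of 3 tested that rose (3.55 ± 0.729 FPKM in TEFM and 2.43 ± 0.257 FPKM in EV), while TGFA and BTC did not pass and AREG, EREG and NRG1 lay under the minimum. Thus 33.3% of these tested growth factors were called, below the 43.4% of all tested genes. HBEGF was not called with limma on log2(FPKM + 1).

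Ratios within a library show how the genes shifted against each other, independent of scaling between libraries. The size of such a ratio depends on the gene lengths used, as described below, but its fold change between groups does not. MMP14 stood at 1.73, 1.71 and 1.74 times the FPKM of TIMP2 in the TEFM libraries, against 2.96, 3.33 and 3.38 times in the EV libraries. MMP15 stood at 2.38, 1.85 and 1.97 times TIMP2 in TEFM, against 3.11, 3.41 and 3.72 times in EV. Relative to TIMP2, both proteases were therefore lower in every TEFM library than in any EV library, although their own levels were higher. TIMP1 stood at 1.48, 1.40 and 1.55 times TIMP2 in TEFM, against 2.13, 1.87 and 2.63 times in EV. PLAU stood at 1.09, 1.09 and 1.04 times the FPKM of PLAUR in TEFM, against 0.997, 0.824 and 1.15 times in EV, ranges that overlap. The ratios were not tested, since the genes were chosen with earlier results known.

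**Figure D2:**
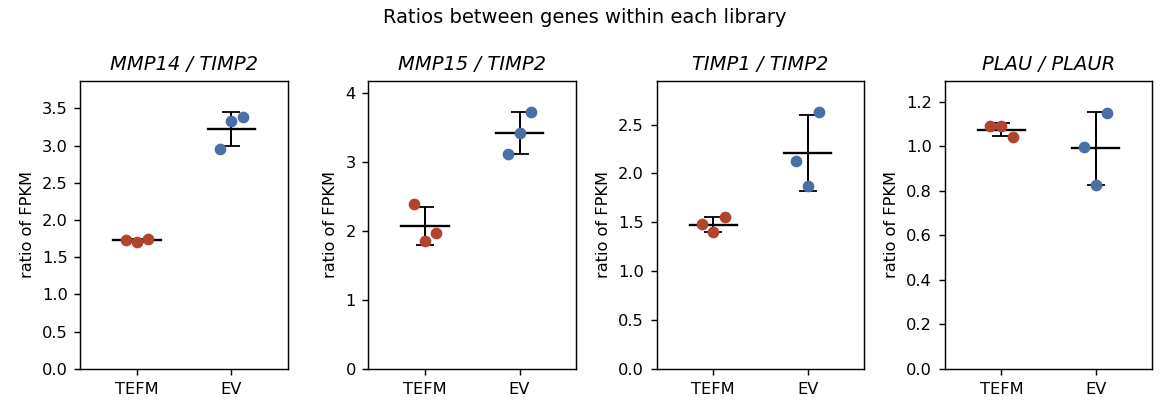
Ratio of FPKM between 2 genes of the same library, with TEFM on the left and EV on the right of each panel; points are libraries, the line is the mean and the error bar is the SD over 3 libraries. The ratio of MMP14 to TIMP2 averaged 1.73 in TEFM and 3.22 in EV, and the ratio of PLAU to PLAUR overlaps between groups.

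In the TEFM libraries the order of the mean levels was MMP15 (14.5 ± 2.05 FPKM), MMP14 (12.1 ± 0.127) and ADAM9 (12.1 ± 0.242), TIMP1 (10.3 ± 0.412), TIMP2 (7.01 ± 0.110), PLAU (3.87 ± 0.1), PLAUR (3.60 ± 0.183), MMP24 (0.333 ± 0.124) and TIMP3 (0.05 ± 0.0346; SD, n = 3 each). The lowest MMP15 value among the TEFM libraries, 13.1 FPKM, was above every value of MMP14 and ADAM9 there on the deposited scale; MMP14 and ADAM9 did not differ beyond their spread, and neither did PLAU and PLAUR. In the EV libraries ADAM9 led with 13.7 ± 0.131 FPKM, before MMP15 (10.9 ± 0.613), MMP14 (10.3 ± 0.311), TIMP1 (7.05 ± 1.19), TIMP2 (3.19 ± 0.139), PLAUR (2.97 ± 0.265), PLAU (2.91 ± 0.222), MMP24 (0.323 ± 0.0862) and TIMP3 (0.0700 ± 0.0458; SD, n = 3 each). MMP15 and MMP14 did not differ beyond their spread there, and neither did TIMP2, PLAUR and PLAU. On the deposited scale TIMP2 stood at 7.01 FPKM in TEFM, above PLAU and PLAUR beyond their spread there.

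These levels depend on the gene length used. The deposited FPKM divide by the size of all exons of a gene merged, which is 17704 bases for ADAM9, while its longest coding transcript in GENCODE release 29 is 3839 bases. For PLAUR the 2 lengths are 4457 and 1610 bases, and for TIMP2 5633 and 3652 bases. Scaled by the longest coding transcript instead, ADAM9 averaged 55.9 ± 1.11 in TEFM and 63.2 ± 0.612 in EV, in the units of FPKM, above the 8 other genes. MMP14, at 15.0 ± 0.154 in TEFM and 12.7 ± 0.382 in EV, then averaged above MMP15, at 14.4 ± 2.04 in TEFM and 10.8 ± 0.607 in EV, the reverse of their order on the deposited scale. PLAUR averaged 9.98 ± 0.502 in TEFM and 8.21 ± 0.734 in EV on that scale and PLAU 4.29 ± 0.116 in TEFM and 3.22 ± 0.241 in EV. PLAUR stood above PLAU in both groups. TIMP2, at 10.8 ± 0.171 in TEFM and 4.92 ± 0.22 in EV, averaged above PLAUR in TEFM and below it in EV. The counts on that scale still hold reads from all merged exons. Levels can thus be overstated where the 2 lengths differ widely, as for ADAM9 and PLAUR. Fold changes between groups do not depend on the length used.

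**Figure D3:**
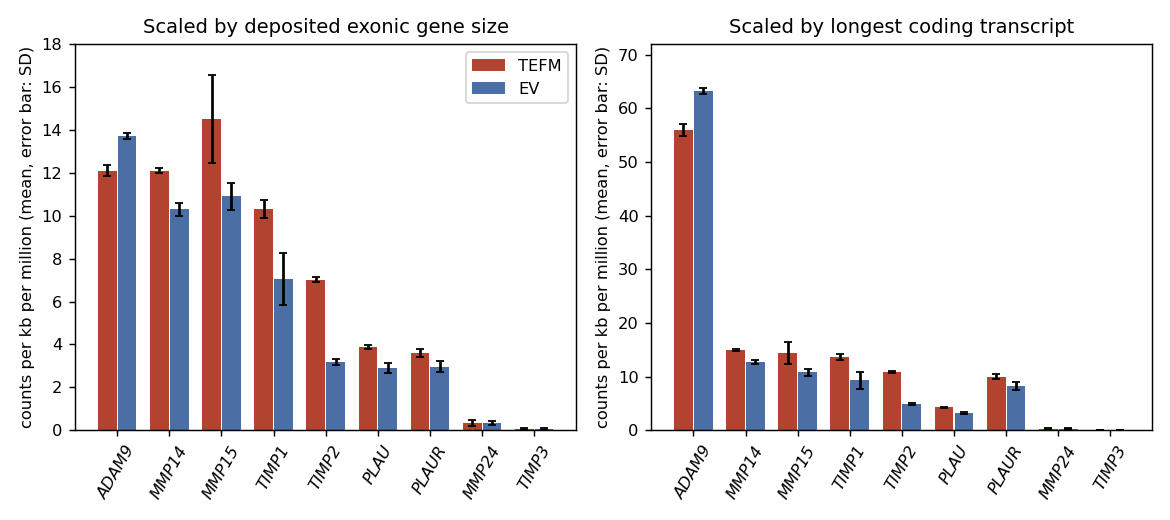
Mean level of each gene in TEFM (left bar of each pair) and EV (right bar), in the units of FPKM, scaled by the deposited exonic gene size (left panel) or by the longest coding transcript of GENCODE release 29 (right panel); error bars are the SD over 3 libraries, and the panels differ in y range. With the transcript length ADAM9 stands at 55.9 in TEFM and 63.2 in EV, against 12.1 and 13.7 with the deposited size.

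The wider list held 101 proteases, inhibitors and cofactors, of which 49 were tested. Of these 27 rose, 5 fell and 17 did not pass, so that 65.3% were called, against 43.4% of all tested genes. SERPINE2, ADAMTS14 and CST6 among the genes that rose had EV means under the minimum and were tested only through their TEFM levels, so the count is no support for a direction. Their median log2 fold change was 0.20, against 0.00 over all tested genes. Without the 9 genes above, 42 were tested, with 21 that rose and 4 that fell. Like the 9 genes, this list was drawn up with earlier results of these data known.

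Of 5 tested genes of proprotein convertases, which cut the propeptide off membrane-type MMPs and ADAMs, and MMP inducers, 3 rose and none fell; 60% were called, against 43.4% of all tested genes. BSG, which encodes an inducer of MMPs, fell without TEFM replicate 1, without EV replicate 2, without composition scaling and in both fits with lower minimums on counts, as in that of genes with at least 10 counts in all (edgeR adjusted p = 0.0349). FURIN averaged 33.3 ± 1.05 FPKM in TEFM and 26.3 ± 1.78 FPKM in EV (log2 fold change 0.38, edgeR adjusted p = 4.10e-07). PCSK5 averaged 4.50 ± 0.266 FPKM in TEFM and 1.08 ± 0.107 FPKM in EV, a log2 fold change of 2.11 (edgeR adjusted p = 5.09e-16), and PCSK7 rose with a log2 fold change of 0.48. PCSK6 (0.07) and BSG (-0.09) did not pass (edgeR adjusted p = 0.431 and 0.0772).

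Serine proteases of the cell surface moved both ways, 3 of 7 tested genes rising and 1 falling, 57.1% called against 43.4% of all tested genes. ST14, the matriptase gene, averaged 57.2 ± 2.39 FPKM in TEFM and 32.6 ± 2.11 FPKM in EV. TMPRSS4 averaged 5.15 ± 0.195 FPKM in TEFM and 1.62 ± 0.0503 FPKM in EV (log2 fold change 1.70, edgeR adjusted p = 9.21e-15). TMPRSS2 fell, at 24.9 ± 0.594 FPKM in TEFM and 42.0 ± 0.713 FPKM in EV (log2 fold change -0.72, edgeR adjusted p = 3.45e-13). SPINT1, an inhibitor of matriptase, rose by a log2 fold change of 0.22, and PRSS8 and SPINT2 did not pass (0.02 and 0.10).

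Lysosomal cathepsins and their inhibitors, the cystatins, had 6 rises and no fall among 10 tested genes, against 21.7% of all tested genes higher. One of the 6, CST6, reached the minimum only through its TEFM level (1.70 ± 0.667 FPKM in TEFM and 0.613 ± 0.417 FPKM in EV), and 4 rose with limma or when TEFM replicate 3, EV replicate 1 or EV replicate 2 was left out. CTSB averaged 26.2 ± 0.375 FPKM in TEFM and 20.8 ± 0.782 FPKM in EV, and CTSL 7.48 ± 0.419 FPKM in TEFM and 5.54 ± 0.527 FPKM in EV. CTSZ (log2 fold change 0.20) and CTSD (0.15) also rose. ADAMTS proteases, secreted relatives of the ADAMs, split evenly, with 3 rises and 3 falls among 9 tested genes, 66.7% called against 43.4% of all tested genes. ADAMTS18 averaged 3.22 ± 0.211 FPKM in TEFM and 7.47 ± 0.178 FPKM in EV (log2 fold change -1.18, edgeR adjusted p = 5.53e-12). With limma on log2(FPKM + 1), 1 ADAMTS gene was higher. Of the other 3 tested matrix-degrading enzymes, HTRA1 rose (19.2 ± 0.538 FPKM in TEFM and 16.0 ± 1.19 FPKM in EV), and BMP1 and HPSE did not pass. Here 33.3% were called, below the 43.4% of all tested genes. None of the 17 secreted MMPs reached the minimum for testing, and 5 of them had no count in any library.

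**Figure D4:**
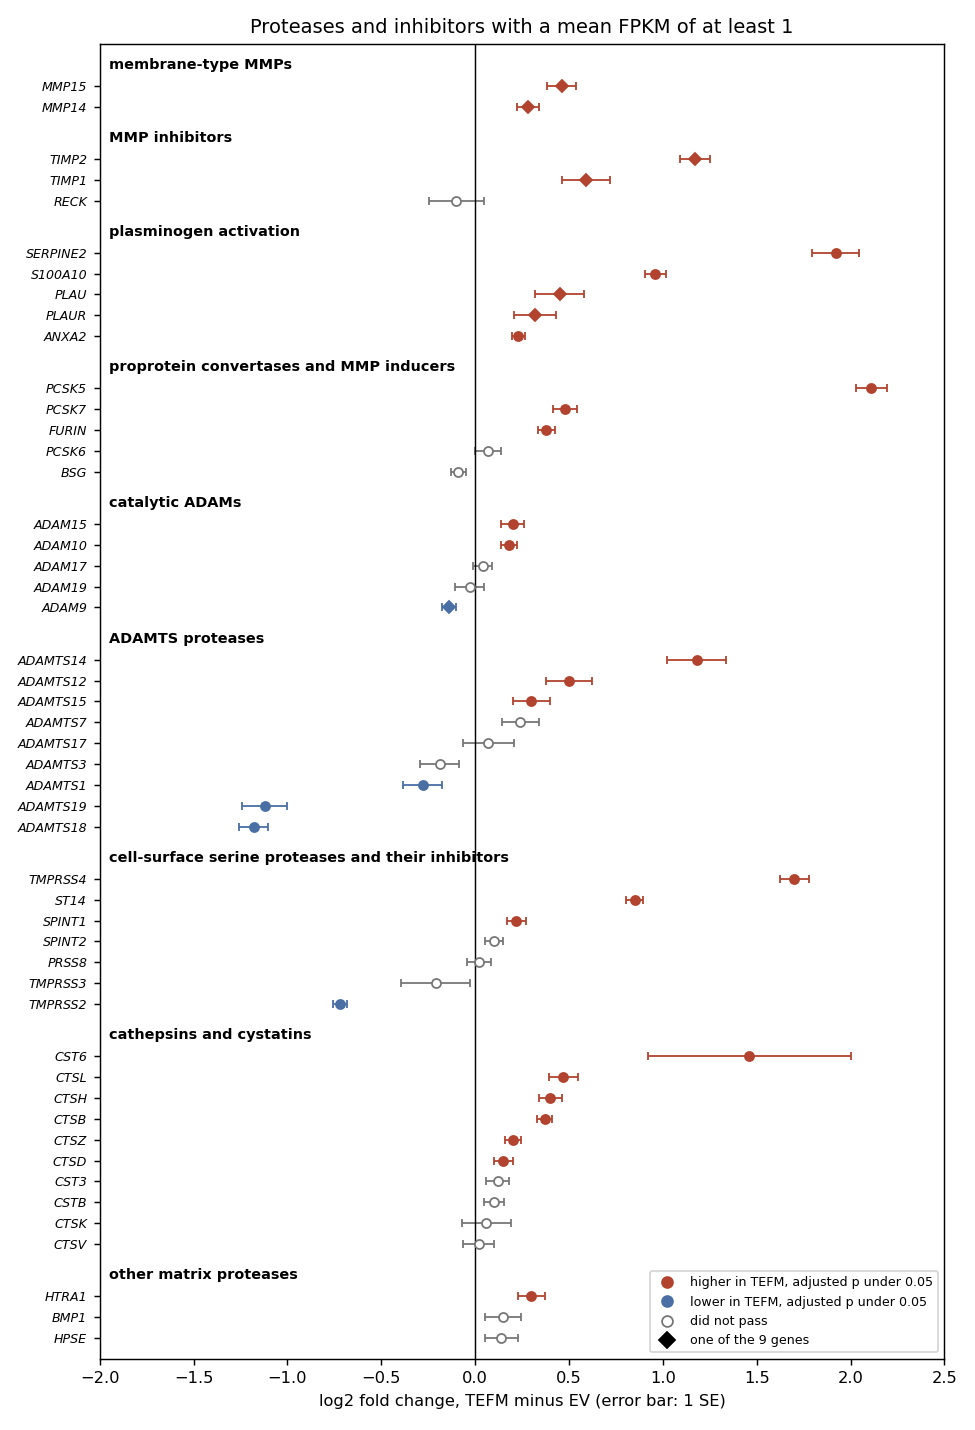
Log2 fold change, TEFM minus EV, of the 49 tested proteases, inhibitors and cofactors, grouped by role; the error bar is 1 standard error of edgeR's estimate, diamonds mark members of the 9 genes and open symbols genes that did not pass. Of the 49, 27 were higher and 5 lower, and TIMP2 stands at 1.17, above MMP15 at 0.46 and MMP14 at 0.28.

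Matrix and surface substrates of these proteases moved both ways, with 6 rises, 6 falls and 1 gene that did not pass among 13 tested, 92.3% called against 43.4% of all tested genes. COL4A2, among the 6 rises, reached the minimum only through its TEFM level (1.37 ± 0.0493 FPKM in TEFM and 0.99 ± 0.0854 FPKM in EV). LAMC1, a laminin chain, averaged 63.6 ± 2.26 FPKM in TEFM and 86.7 ± 1.26 FPKM in EV, and TNC, which encodes tenascin C, 9.58 ± 0.505 FPKM in TEFM and 14.7 ± 0.140 FPKM in EV. CD44, a hyaluronan receptor that MMP14 can shed, averaged 10.7 ± 0.274 FPKM in TEFM and 6.33 ± 0.308 FPKM in EV. SDC1, a syndecan that MMP14 can also shed, averaged 24.1 ± 1.08 FPKM in TEFM and 16.8 ± 1.96 FPKM in EV.

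Genes of AP-1, ETS and NF-kB factors moved both ways. Of 12 tested AP-1, ETS and NF-kB genes, 5 rose and 5 fell, 83.3% called against 43.4% of all tested genes. The AP-1 gene FOSL1 averaged 9.02 ± 0.356 FPKM in TEFM and 4.16 ± 0.847 FPKM in EV, whereas JUN averaged 58.4 ± 3.04 FPKM in TEFM and 84.5 ± 1.82 FPKM in EV. ETV5, an ETS factor, averaged 27.7 ± 2.01 FPKM in TEFM and 50.8 ± 2.10 FPKM in EV (log2 fold change -0.83, edgeR adjusted p = 4.40e-13). ELF3 (log2 fold change 0.44), JUNB (0.38), FOSL2 (0.34) and RELA (0.19) rose, and JUND (-0.43), ETV4 (-0.34) and NFKB1 (-0.26) fell. The promoter window of PLAUR, the 1 with the AP-1 motif, is printed above.

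The 9 genes lie on 9 chromosomes. The median log2 fold change of the other tested genes in the same segment of 10 Mb was between -0.01 (PLAU, 64 genes) and 0.12 (TIMP2, 96 genes), below the log2 fold change of each of the 6 genes that rose. For likeness of pattern, the log2 library-scaled counts of each gene were centred on their mean and compared across the 6 libraries with those of 7570 or 7571 other genes of at least 5 FPKM, by the root mean square difference. The genes nearest to TIMP2 were PPL, MSI1 and IFITM1, at 0.0291, 0.0436 and 0.0439. Nearest to PLAU were HSP90AB1, FAM32A and EIF4G1, at 0.0205 to 0.0277, nearest to MMP14 were LONP2, SKI and ZNF841, at 0.0143 to 0.0165, and nearest to ADAM9 were PKN2, SREK1 and ZNF106, at 0.0106 to 0.0149. TIMP1 had no gene closer than CDC42BPG at 0.0649. Likeness by this measure largely follows the fold change between groups. HSP90AB1, FAM32A and EIF4G1 had log2 fold changes of 0.47, 0.44 and 0.44, against 0.45 for PLAU. Shared regulation was not tested. None of the genes named as neighbours here is on the lists of proteases and inhibitors.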

How the data were processed

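Expression was measured in 6 libraries, 3 TEFM and 3 EV. The authors deposited raw counts and FPKM per gene, per the file headers; FPKM recomputed from counts lay within 0.0051 for 100% of genes. Trimming used cutadapt 1.9.1 and the named build is hg19, per the submitters' processing notes; aligner and counter: not given in the sources used here. Coordinates are printed as deposited: of 58254 gene IDs shared with GENCODE release 29 (GRCh38), 99.84% overlap on the same chromosome, which is at odds with the build named in those notes.

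Counts were tested with edgeR 4.0.16 (R 4.3.3) with TMM factors of 0.982 to 1.02; the common biological coefficient of variation was 4.81%. Standard errors were derived from the F statistic. No 2 libraries of a group agreed within sampling noise (chi-square per degree of freedom 2.17 to 4.78). Where they share a derivation, p-values measure only the spread between these libraries. On counts simulated for the 14254 genes of this comparison, with 50 genes changed at each size, the test recovered 30 at 1.2-fold, 34 at 1.5-fold, 43 at 2-fold and 48 at 3-fold, and 8.82% of its calls were false. Far fewer genes changed there than the 43.4% called in the data. Neither the recovery nor the false share therefore carries over to the real calls. Alternatives used limma 3.58.1, DESeq2 1.42.0, other scalings and filters, omission of each library and a replicate block. A scaling by transcript length and a fit of genes with at least 10 counts in all were chosen after seeing the data; this fit serves genes under 1 FPKM, because the fit with no minimum on 37256 genes set an infinite prior degrees of freedom, so its p-values did not use each gene's own spread.

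The 9 genes and all lists were chosen with earlier results of these data known. Named genes are the 9, up to 4 called genes per list with a mean of at least 5 FPKM and the smallest p, all called genes of the MMP, inhibitor and plasminogen lists, the 3 nearest in pattern, and overlapping genes; other genes named were chosen after their values were seen. One further result is not reported here.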

Additional observations from a re-analysis of the deposited data

How the results depend on the processing

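Over all alternatives run on the 7 tested genes and the 2 fitted only with lower minimums, 115 of 119 log2 fold changes kept their direction and their side of the threshold; the other 4 were those of PLAUR given above. The log2 fold change lay between 0.93 and 1.22 for TIMP2, 0.47 and 0.70 for TIMP1, 0.33 and 0.52 for MMP15, 0.32 and 0.50 for PLAU, 0.22 and 0.30 for MMP14, and -0.18 and -0.13 for ADAM9. With each library left out in turn, 5 to 6 of the 9 genes were higher, 1 was lower in every case, and 5157 to 6270 genes were called in all. The log2 difference of the MMP14 to TIMP2 ratio kept its sign under every such omission. It could not do otherwise, because the ratios did not overlap between groups. A minimum of 5 FPKM left PLAU and PLAUR out, so that 4 were higher.

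Replicate numbers are shared by the groups, but same-numbered libraries did not deviate together (correlations of -0.002, 0.003 and -0.007), and no library correlated best with its own number. With the replicate block 5935 genes were called, and 6 of the 9 genes were higher and 1 lower. Counts of calls per list moved by more than 1.5 times, or from or to 0, in 33 of 578 comparisons. The 578 include the lists of secreted MMPs, leukocyte markers and endothelial markers, which had no tested gene. Their counts could not move in any setting that kept a minimum of 1 FPKM or more, so the share that moved is understated.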

Other observations

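Several genes of the lists lay under the minimum of 1 FPKM on average but were called when edgeR was fitted to all genes with at least 10 counts in all, where 28.0% of 25786 genes were called. They were chosen after their values were seen. DPP4, a membrane dipeptidase, had 280, 308 and 260 counts in the TEFM libraries, against 10, 12 and 15 counts in the EV libraries (edgeR adjusted p = 1.44e-22). SERPINB5, which encodes maspin, had 35, 39 and 24 counts in TEFM, against 4, 4 and 1 in EV (edgeR adjusted p = 2.28e-07). SERPINB5 reached the minimum of 10 counts only through its TEFM libraries. MMP2, the gelatinase that MMP14 and TIMP2 activate together, had 41, 22 and 27 counts in TEFM, against 8, 11 and 13 in EV (log2 fold change 1.52, edgeR adjusted p = 0.00202). ADAM33 had 134, 107 and 92 counts in TEFM, against 47, 46 and 54 in EV (edgeR adjusted p = 1.63e-06, log2 fold change 1.21). Other genes fell in that fit: ADAM28 had 76, 81 and 58 counts in TEFM, against 113, 100 and 140 in EV (log2 fold change -0.68, edgeR adjusted p = 0.00201), ADAMTS6 had 8, 16 and 14 counts in TEFM, against 40, 36 and 31 in EV (-1.44, adjusted p = 0.00120), and the matrix substrate VCAN had 57, 27 and 32 counts in TEFM, against 75, 83 and 75 in EV (-0.97, adjusted p = 0.00125).

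Among the membrane-type MMPs at low level, MMP17, held to the membrane by a lipid anchor, had 51, 36 and 21 counts in TEFM, against 16, 12 and 17 in EV (edgeR adjusted p = 0.00307). MMP16 went the other way, with 28, 42 and 16 counts in TEFM, against 71, 42 and 76 in EV (log2 fold change -1.10, edgeR adjusted p = 0.00106). TEFM replicate 2 and EV replicate 2 had the same count of MMP16, but their library totals differed. The levels of MMP16 in these libraries were 0.2 and 0.23 FPKM.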
